A study of Mus musculus with 3 samples.

Results

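The D-type cyclins, the inhibitors of cyclin-dependent kinases (CDKs) and the retinoblastoma protein form the switch that decides whether a mammalian cell leaves G1 and replicates its DNA. Their mRNAs were measured here in NIH3T3 cells, an immortalized line of mouse fibroblasts. The 10 genes were Ccnd1, Ccnd2, Ccnd3, Cdkn1b, Cdkn1c, Cdkn2a, Cdkn2b, Cdkn2c, Cdkn2d and Rb1. They were listed by name as G1 control genes, with earlier results of these data known, and every probe whose RefSeq accession belonged to 1 of these genes was taken. This gave 13 probes on 22 spots, out of 55681 probes on 59305 spots of each array. The whole set of named genes on the arrays counts 20660.

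The cells were grown to confluency in medium with serum and collected at 24 h after the start of treatment. The 3 groups were None (no compound), 20 µM AR7 and 20 µM BMS614, all in cells labelled WT. AR7 is an earlier small molecule that acts on the retinoic acid receptor α (RARα) and activates chaperone-mediated autophagy, and BMS614 is a selective RARα antagonist. Both compounds were dissolved in DMSO, and the labels do not say whether the cells of the None group received DMSO alone. Samples of the compounds CA39 and CA77 were not used here. Each group had 1 array, hybridized with Cy3-labelled RNA of a whole culture. With 1 array a group no difference between groups has a replicate check and no p-value is given. Both compounds were set against the same None array, so the differences from None are not independent of each other.

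Cyclin D binds CDK4 or CDK6, and the complex starts the phosphorylation of the retinoblastoma protein, which then releases E2F transcription factors. Inhibitors of the INK4 family bind CDK4 and CDK6 directly and keep cyclin D away. Inhibitors of the Cip/Kip family act on cyclin-CDK2 complexes and also take part in the assembly of cyclin D complexes. In fibroblasts, mitogens in serum are known to raise cyclin D, and contact between cells in a dense culture is known to raise p27, the product of Cdkn1b.

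Spot intensities had a 75th percentile of 692.5 on the None array, 780.75 on the AR7 array and 908.625 on the BMS614 array. The share of probes well above background by the scanner software was 55.4%, 61.2% and 61.8% on the same arrays. Levels below are log2 intensities after the RMA background and quantile normalization over the 3 arrays. Of 10 fibroblast markers, 10 were well above background on every array, with a summed intensity of 738018 to 944902. The Col3a1 probe was dim, with an intensity of 152 to 174.5, so the sum rests on the other markers. Of the 7 measured markers of other cell types, Cdh1, Krt14, Cd3e and Pecam1 were well above background on all 3 arrays, Ptprc and Cdh5 on some arrays, and Epcam on none. The Cd3e probe had an intensity of 1165 to 1386, and the part of these markers' signal in the results was not tested. The summed intensities of the epithelial, leukocyte and endothelial lists lay between 390.8 and 1540, and sums over different probes do not rank the cell types. The probes of 7 of the 10 genes (8 probes) were well above background on all 3 arrays, and those of the other genes (5 probes) on none. No spot of these genes was saturated. Because the RNA came from whole cultures, fewer cells that express a gene and less of its RNA per cell cannot be told apart. Levels of different probes are not comparable with each other, so each probe was compared only with itself across arrays.

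**Figure D1:**
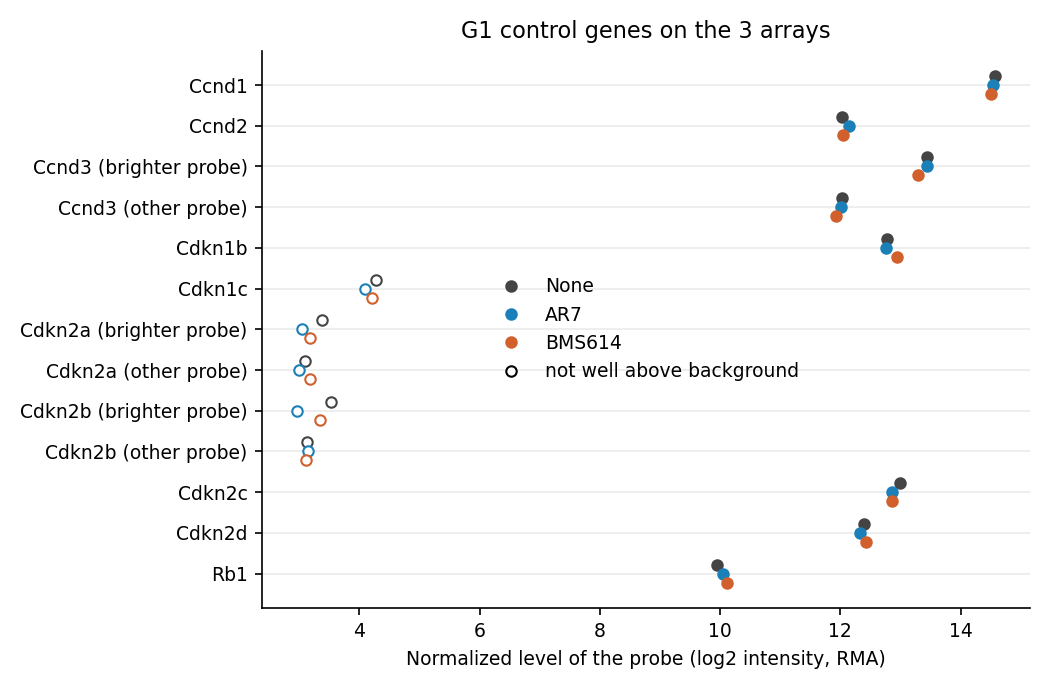
Normalized log2 intensity (x axis) of each probe of the D cyclins, CDK inhibitors and Rb1 (rows) on the None, AR7 and BMS614 arrays, with open circles for probes not well above background. The 8 filled probes lay between 9.96 and 14.57 and shifted little between arrays, and the 5 open probes of Cdkn1c, Cdkn2a and Cdkn2b lay between 2.96 and 4.27.

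No probe of the 10 genes reached a 2-fold or a 1.5-fold difference in any comparison. Among all probes tested, 1.63% were at least 2-fold different between AR7 and None (543 of 33355) and 6.49% at least 1.5-fold. For BMS614 against None these shares were 1.82% (607 of 33369) and 7.19%. For BMS614 against AR7 they were 1.67% (595 of 35582) and 7.42%. At such shares a count of 0 of 8 probes does not set these genes apart from the rest of the array. Smaller differences were read against the spot error of the array, taken from 256 probes that are printed 10 times on each array and gave, at each signal level, the SD of the difference between arrays for single spots. For a probe on several spots, such as that of Rb1, this SD was divided by the square root of the number of spots. A difference of over 2 of these SDs is larger than the error of spots, which leaves out all variation between cultures, labelling and hybridization. Many probes passed that mark: 19.5% for AR7 against None (5898 of 30289), 27.1% for BMS614 against None (8202) and 26.2% for BMS614 against AR7 (7921). Of the 8 probes of these genes, 3 passed it for AR7 against None, 5 for BMS614 against None and 6 for BMS614 against AR7. The Rb1 probe is among them in all 3 comparisons by the SD of the mean of its 10 spots. The shares over all probes cover every signal level, and bright probes have a smaller SD, so they pass at smaller differences. Cdkn1b was matched or exceeded in its direction, for BMS614 against AR7, by 4.99% of probes within 0.5 log2 units of its mean signal. For the others this share was 8.13% and 21.7% (Ccnd3), 17.6% (Cdkn2d), 19.6% (Ccnd2) and 34.5% (Rb1).

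Ccnd1, Ccnd2 and Ccnd3 encode cyclins D1, D2 and D3, the regulatory subunits of CDK4 and CDK6. All 3 genes were expressed in the untreated cells. Ccnd1 had a level of 14.57 on the None array, 14.54 on the AR7 array and 14.50 on the BMS614 array. The differences from None were -0.036 with AR7 (SD of repeated spots 0.049) and -0.069 with BMS614 (SD 0.045), and neither exceeded 2 SDs. With other scalings the difference with BMS614 reached -0.12, past 2 SDs under 3 of 6 alternatives. Cyclin D1 is the form that answers most directly to mitogens in fibroblasts.

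Ccnd2 had a level of 12.03 on the None array, 12.15 on the AR7 array and 12.05 on the BMS614 array. The AR7 array was the highest and the other arrays lay close together. With AR7 the level was higher by 0.12 (SD 0.052), a fold of 1.08, and with BMS614 the difference was 0.017 (SD 0.051). Between the compounds the difference of BMS614 from AR7 was -0.10 (SD 0.037). Of 2343 probes within 0.5 log2 units of its mean signal, 11.8% were at least as far above None with AR7, so a difference of this size was common at this signal level. Cyclin D2 is among the targets that forkhead factors are known to repress.

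Ccnd3, for cyclin D3, had 2 probes. The brighter probe had a level of 13.45 on the None array, 13.44 on the AR7 array and 13.28 on the BMS614 array. The other probe had 12.03, 12.02 and 11.93 in the same order. Both probes were lowest on the BMS614 array and nearly equal on the others. The difference of BMS614 from None was -0.17 (SD 0.049) for the brighter probe and -0.11 (SD 0.051) for the other, folds of 0.892 and 0.928. With AR7 the differences were -0.014 (SD 0.062) and -0.016 (SD 0.052). Against the AR7 array, the BMS614 array was lower too, with differences of -0.15 (SD 0.045) and -0.092 (SD 0.037). Near the signal of the brighter probe 6.52% of 1611 probes were at least as far below None with BMS614. Of the D cyclin probes, the brighter Ccnd3 probe had the largest difference from None.

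Cdkn1b and Cdkn1c encode p27 and p57, inhibitors of the Cip/Kip family. Cdkn1b had a level of 12.78 on the None array, 12.77 on the AR7 array and 12.95 on the BMS614 array, so the BMS614 array stood above the other arrays. The difference of BMS614 from None was 0.17 (SD 0.049), a fold of 1.13 and close in size to that of Ccnd3, which was the larger under 4 of 6 alternatives. The difference of AR7 from None was -0.010 (SD 0.062), and that of BMS614 from AR7 was 0.18 (SD 0.045), also a fold of 1.13. Of 1922 probes near its signal, 5.41% were at least as far above None with BMS614. Before any scaling, its intensity was 6204 on the None array, 6874 on the AR7 array and 9367 on the BMS614 array, in the order of the 75th percentiles of the arrays.

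With BMS614, Cdkn1b and Ccnd3 lay at opposite ends of these genes, so their promoter sequences are shown, as the 250 bases before the annotated start in RefSeq on the build GRCm38.p6. Capitals mark motifs found by their letters on either strand: the CCAAT box (CCAAT), the GC box (GGGCGG, or CCGCCC when on the opposite strand), the forkhead (FOXO) motif GTAAACA and the half-sites bound by retinoic acid receptors (AGGTCA or GGGTCA or AGTTCA or GGTTCA). Cdkn1b has 1 such window, chr6:134920151-134920400 on the plus strand. Ccnd3 has 2, chr17:47504801-47505050 and chr17:47593217-47593466, both on the plus strand.
Cdkn1b: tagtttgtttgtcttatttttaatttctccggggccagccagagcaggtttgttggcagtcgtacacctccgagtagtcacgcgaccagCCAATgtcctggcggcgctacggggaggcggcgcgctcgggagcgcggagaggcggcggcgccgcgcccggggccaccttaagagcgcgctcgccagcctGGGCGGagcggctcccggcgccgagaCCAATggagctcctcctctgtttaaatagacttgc
Ccnd3, first window: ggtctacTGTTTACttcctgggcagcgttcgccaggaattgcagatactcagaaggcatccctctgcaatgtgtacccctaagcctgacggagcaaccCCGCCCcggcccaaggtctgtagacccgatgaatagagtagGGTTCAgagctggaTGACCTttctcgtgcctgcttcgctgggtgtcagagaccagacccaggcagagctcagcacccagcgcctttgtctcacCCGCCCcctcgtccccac
Ccnd3, second window: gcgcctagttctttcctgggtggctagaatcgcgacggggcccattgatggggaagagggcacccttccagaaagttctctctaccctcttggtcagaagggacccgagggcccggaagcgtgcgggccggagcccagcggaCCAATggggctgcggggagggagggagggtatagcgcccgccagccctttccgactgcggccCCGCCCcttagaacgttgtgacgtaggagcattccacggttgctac

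The Cdkn1b window held 2 CCAAT boxes and 1 GC box, and 64.4% of its bases were G or C. The first Ccnd3 window held 2 GC boxes on the opposite strand, 1 FOXO motif on the opposite strand and 2 retinoic acid receptor half-sites, GGTTCA in the direction of the gene and AGGTCA on the opposite strand. The second held 1 CCAAT box and 1 GC box, the latter on the opposite strand. Such motifs are frequent: of 32851 promoter windows of this length, 33.8% held a CCAAT box, 32.7% a GC box, 38.6% a receptor half-site and 3.17% the FOXO motif. Windows were found for 6 of the 10 genes (9 windows): Ccnd3, Cdkn1b, Cdkn2a, Cdkn2b, Cdkn2c and Cdkn2d. None of the 9 held 2 half-sites as a direct repeat with a spacing of 1, 2 or 5 bases, arrangements found in 0.164%, 0.174% and 0.0883% of all windows. The E2F motif (TTTCCCGC or TTTGGCGC), found in 1.3% of all windows, was in the second of the Cdkn2a windows. A match says that the letters are there and nothing about binding.

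Cdkn2c and Cdkn2d encode p18 and p19, the INK4 inhibitors that were well above background. Cdkn2c had a level of 12.99 on the None array, 12.87 on the AR7 array and 12.85 on the BMS614 array, so both treated arrays lay below the untreated array. The difference from None was -0.13 with AR7 (SD 0.062) and -0.14 with BMS614 (SD 0.049), folds of 0.916 and 0.908. Both rest on the same None array, and the treated arrays differed from each other by -0.012 (SD 0.045). Of 1901 probes near its signal, 6.73% were at least as far below None with AR7 and 10.2% with BMS614. Cdkn2d had a level of 12.40 on the None array, 12.33 on the AR7 array and 12.43 on the BMS614 array. Its differences from None, -0.068 with AR7 (SD 0.052) and 0.025 with BMS614 (SD 0.051), were within 2 SDs, and the BMS614 array was above the AR7 array by 0.093 (SD 0.037).

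**Figure D2:**
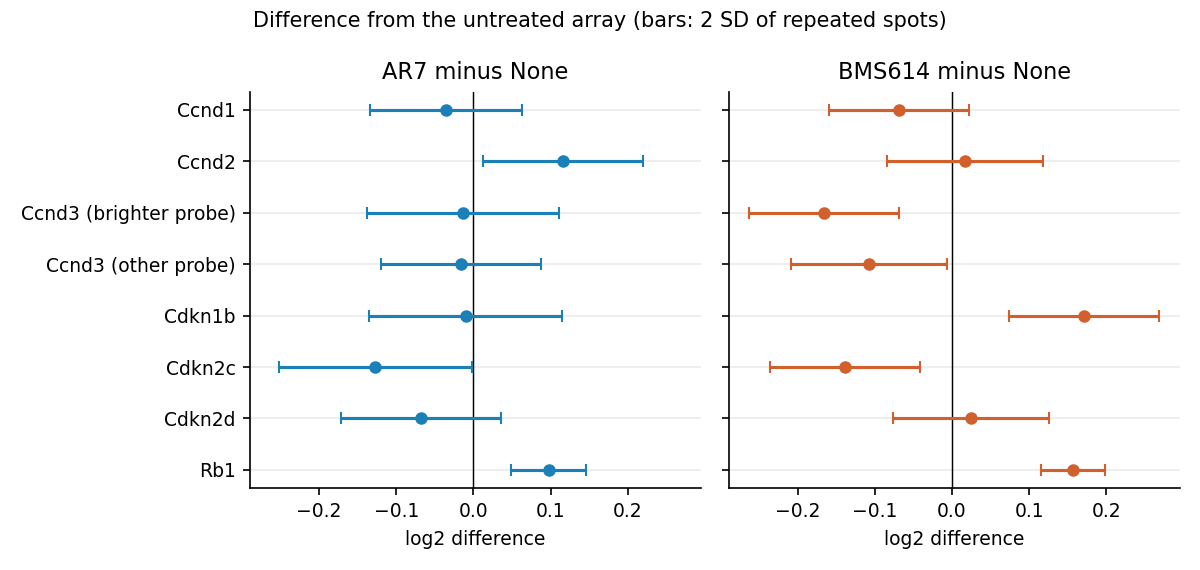
Log2 difference (x axis) of the AR7 array (left) and of the BMS614 array (right) from the None array for each of the 8 probes well above background (rows), with bars of 2 SDs of repeated spots to each side. With AR7 the bars of Ccnd2, Cdkn2c and Rb1 do not reach 0, and with BMS614 those of Cdkn1b, both Ccnd3 probes, Cdkn2c and Rb1 do not.

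Rb1 encodes the retinoblastoma protein, the target of the cyclin D kinases. Its probe was printed on 10 spots of each array, so that its spot error could be seen directly. The mean level was 9.96 ± 0.11 (SD, 10 spots) on the None array, 10.05 ± 0.090 (SD, 10 spots) on the AR7 array and 10.11 ± 0.056 (SD, 9 spots) on the BMS614 array, where 1 spot was marked as an outlier and left out. The None array was the lowest and the BMS614 array the highest, with overlap between their spots. The difference of the means from None was 0.097 with AR7 and 0.16 with BMS614, a fold of 1.12 for the latter. The SD of repeated spots was 0.024 and 0.021 for the mean of 10 spots and 0.077 and 0.066 for a single spot. By the SD of a single spot, the AR7 difference from None and the difference of BMS614 from AR7 (0.060, SD 0.063) were within 2 SDs.

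Spot by spot, Rb1 was above None by 0.097 ± 0.070 (SD) with AR7, with 9 of 10 spots higher and a range of -0.0099 to 0.23. With BMS614 it was above None by 0.14 ± 0.080 (SD) over the 9 spots kept, all 9 of them higher, with a range of 0.035 to 0.30. This is less than the difference of the means, since the spot left out on the BMS614 array was the lowest on the None array (9.78). Between the compounds, 7 of 9 spots were higher with BMS614, by 0.041 ± 0.042 (SD). Repeated spots share 1 culture and 1 labelling, so these SDs are those of the array and not of the condition. Of 2835 probes near the signal of Rb1, most of them on 1 spot with a larger error, 13.5% were at least as far above None with BMS614 and 19.5% with AR7.

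**Figure D3:**
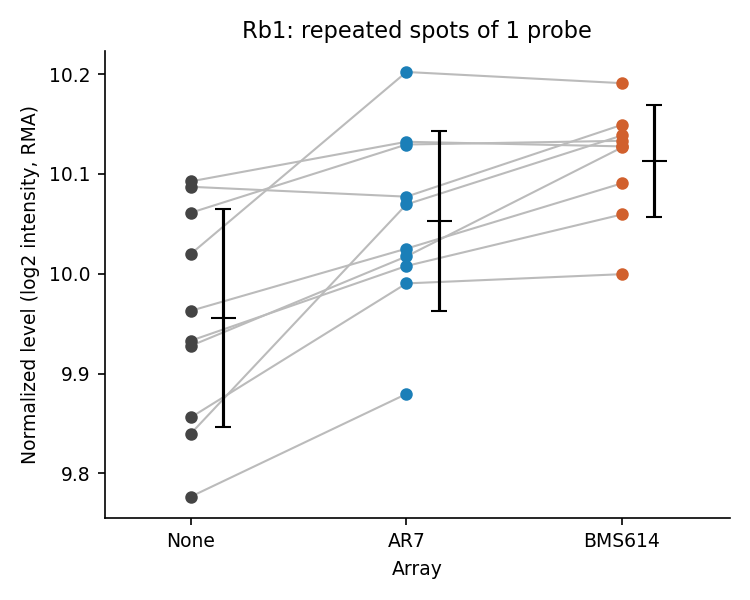
Normalized log2 intensity (y axis) of the repeated spots of the Rb1 probe on the None, AR7 and BMS614 arrays (x axis), with lines joining the spots of 1 position and crosses with bars for the mean and SD of the spots. From None to BMS614 all 9 joined spots were higher, and the spots of the arrays overlapped.

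Cdkn1c, Cdkn2a and Cdkn2b, for p57, for p16 with ARF, and for p15, gave no level that could be compared. The Cdkn1c probe had an intensity of 125 on the None array, 138.5 on the AR7 array and 145.5 on the BMS614 array. It was above the highest of the negative control spots on each array, which reached 112, 122 and 123, but was not called well above background on any. The 2 Cdkn2a probes had intensities of 109 and 103 on the None array, 113 and 112 on the AR7 array, and 118.5 for both on the BMS614 array. The 2 Cdkn2b probes had 112 and 103.5 on the None array, 111 and 116 on the AR7 array, and 123 and 116.5 on the BMS614 array. None of these 4 probes exceeded the highest negative control spot on its array. The 95th percentile of the negative control spots was 105 on the None array, 117 on the AR7 array and 117.6 on the BMS614 array, and the lowest probe called well above background had 128.5, 124 and 131.5. With no level above background on either side, no fold is given.

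NIH3T3 cells are known to lack the Ink4a/Arf locus. The genes beside it in the order of RefSeq annotation were examined after these values were seen. Mtap, a methionine salvage enzyme next to Cdkn2a, was well above background on every array, at 13.44 on the None array, 13.38 on the AR7 array and 13.43 on the BMS614 array. Dmrta1, on the side of Cdkn2b, was near background on every array, with intensities of 105, 113 and 119. The next gene past Mtap, Ifne, was well above background on no array, with intensities of 111, 128 and 129. The next gene past Dmrta1, Zfp352, was well above background on every array, with intensities of 3941, 3731 and 4491. These values give RNA and not the state of the DNA.

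**Figure D4:**
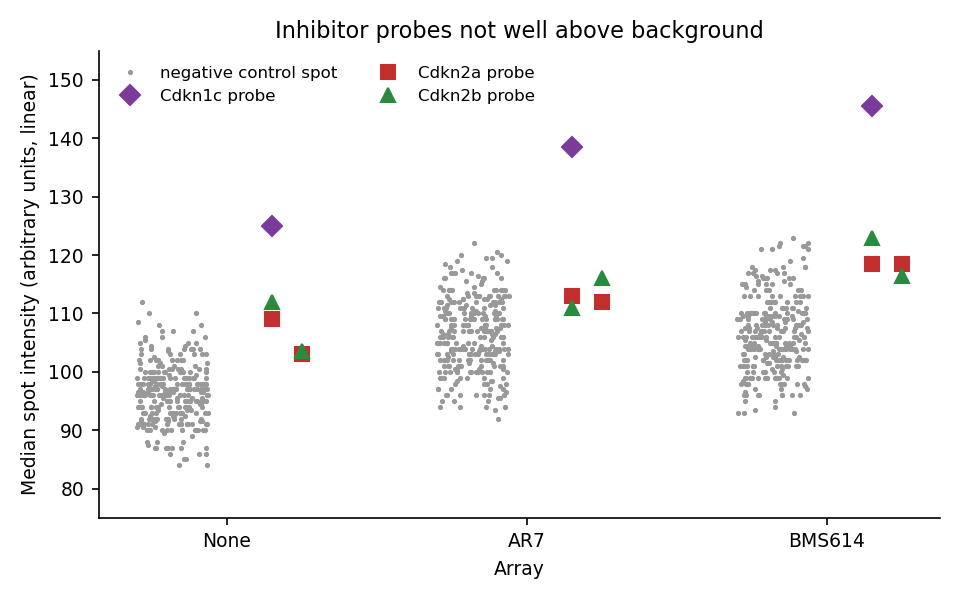
Median spot intensity on a linear scale (y axis, which starts at 75) of the Cdkn1c, Cdkn2a and Cdkn2b probes beside the negative control spots (grey points) of the None, AR7 and BMS614 arrays (x axis). The Cdkn2a and Cdkn2b probes lay within the range of the negative controls on all 3 arrays, and Cdkn1c lay above it on all 3.

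Among the 7 genes well above background, each by its brightest probe, the median difference from None was -0.014 with AR7, and 2 of 7 genes were higher. The median over all 15000 named genes tested was 0.0022, and 50.6% of them were higher. With BMS614 the median was 0.017 with 4 of 7 genes higher, against 0.0072 with 52.0% higher over 15060 genes. The median size of the difference, without its sign, was 0.068 for these genes with AR7 and 0.089 over all genes, and 0.14 with BMS614 against 0.10 over all genes. By gene at the main scaling, Ccnd2 and Rb1 were above and Cdkn2c was below None with AR7 by over 2 SDs. With BMS614 Cdkn1b and Rb1 were above, and Ccnd3 and Cdkn2c below. Under other scalings, Ccnd2 with AR7 and Cdkn2c with either compound did not always pass 2 SDs. Against the AR7 array, the BMS614 array was higher by over 2 SDs for Cdkn1b, Cdkn2d and Rb1 and lower for Ccnd2 and Ccnd3. Rb1 counts in these lists by the SD of the mean of its spots. All of these differences are under 1.5-fold and come from 1 array each.

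The other genes of the G1 pathway were read from 4 lists, of 51 genes of which Skp2 had no probe. All 50 measured genes were well above background on all 3 arrays, and none was 1.5-fold different from None with either compound. Over the 13805 named genes measured above background on every array, 320 with AR7 and 383 with BMS614 were 1.5-fold different. At such shares the absence of a call does not set these 50 genes apart. Over these 50 genes the median difference was -0.025 with AR7, with 22 genes higher, and 0.0082 with BMS614, with 29 higher. By over 2 SDs, 2 genes were higher and 8 lower with AR7, and 9 were higher and 7 lower with BMS614. Of all 13805 named genes measured above background on every array, 1434 were higher and 1345 lower with AR7, and 1970 higher and 1776 lower with BMS614.

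Of the 9 kinases and other cyclins, only some of which act on the retinoblastoma protein directly, 8 were below None with AR7 and the median was -0.088. Ccne2, for cyclin E2, was the lowest with AR7 at -0.38 (SD 0.18), by a dim probe with an intensity of 185 to 241. Ccne1, for cyclin E1, was the highest at 0.013 (SD 0.062) by its brightest probe. The other Ccne1 probe gave -0.36 (SD 0.11) with AR7, so its probes do not give 1 value. By the brightest probe of each gene, Ccne2 was the 1 gene of the 8 past 2 SDs. With BMS614 the median was 0.011, from -0.22 (SD 0.11) for Cdk2, the kinase of cyclins E and A, to 0.20 (SD 0.085) for Cdk7, the kinase that activates other CDKs.

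Of the 12 pocket protein and E2F genes, 7 were higher and 5 lower with each compound, with medians of 0.021 for AR7 and 0.045 for BMS614. With AR7 the values ran from -0.13 (SD 0.055) for E2f8, a repressor of E2F targets, to 0.42 (SD 0.33) for E2f6, also a repressor, whose dim probe had a large spot error. With BMS614, 4 genes were above and 2 below None by over 2 SDs. Rbl2, for p130, a relative of the retinoblastoma protein that acts in resting cells, was the highest with BMS614 at 0.32 (SD 0.11), and E2f4, for its main E2F partner, the lowest at -0.21 (SD 0.064). Rbl1, for p107, was named after its values were seen: with BMS614 its brighter probe was above None by 0.22 (SD 0.064) and its other probe by 0.12 (SD 0.11), and with AR7 the difference of the brighter probe was -0.12 (SD 0.055).

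Of the 11 measured regulators of the D cyclins, inhibitors and Rb, 8 were higher with AR7 (median 0.019) and 6 with BMS614 (median 0.0040). Cdkn3, a phosphatase of CDK2, was the lowest with AR7 at -0.28 (SD 0.053). Gsk3b, the kinase whose phosphorylation marks cyclin D1 for breakdown, was the highest with both compounds by its brightest probe, at 0.15 (SD 0.052) with AR7 and 0.15 (SD 0.051) with BMS614. Its other probes gave -0.30 and -0.11 with AR7 and 0.049 and -0.12 with BMS614, so its probes do not give 1 direction. Fbxw7, which marks cyclin E for breakdown, was the lowest with BMS614 at -0.18 (SD 0.064). Cdkn1a, for p21, the remaining Cip/Kip inhibitor, was named after its values were seen. Its probe on 10 spots was above None by 0.13 (SD 0.018) with AR7, and with BMS614 the difference was -0.029 (SD 0.020). These SDs are for the mean of its spots. Its other probe gave 0.20 (SD 0.11) with AR7 and 0.16 (SD 0.18) with BMS614, so the probes differ in sign with BMS614. Both Cdkn1a probes were highest on the AR7 array, though the BMS614 array differed from it by only -0.046 (SD 0.10) on the other probe. Cdkn1b was highest on the BMS614 array.

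The 18 E2F targets, which are expressed as cells enter S phase and G2, had a median of -0.039 with AR7, with 12 below None, and of 0.0058 with BMS614, with 10 above. With AR7 the values ran from -0.14 (SD 0.055) for Cdc6, a replication licensing factor, to 0.036 (SD 0.049) for Rrm2, a subunit of ribonucleotide reductase. With BMS614 they ran from -0.12 (SD 0.049) for Ccnb1, the mitotic cyclin B1, to 0.22 (SD 0.049) for Mki67, the proliferation marker Ki-67, whose other probe gave 0.16. The BMS614 array was above the AR7 array for 13 of 18 of these genes, 7 of them by over 2 SDs, and none was below by that much. Over all 13805 named genes well above background on every array, the median of this difference was 0.0014, and 2051 were higher and 2001 lower by over 2 SDs. Those genes cover every signal level, while most of the E2F targets are bright, where the SD is small. In the other lists, 5 kinases and other cyclins were higher by over 2 SDs and 0 lower. For pocket proteins and E2F these counts were 3 and 1, and for regulators 3 and 2. All of these counts hold for the main scaling, and others were not tried.

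**Figure D5:**
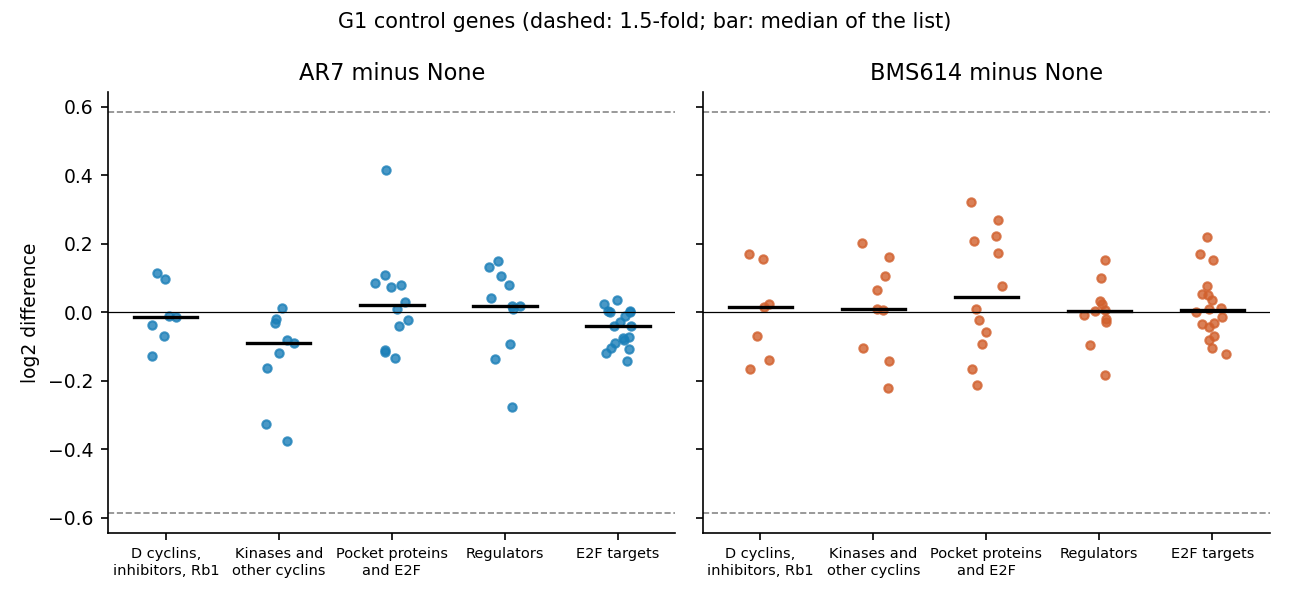
Log2 difference (y axis) of the AR7 array (left) and the BMS614 array (right) from the None array for the 7 measured D cyclin, inhibitor and Rb1 genes and for the 4 lists of other G1 genes (x axis), 1 point a gene by its brightest probe, with a bar at the median of each list. All points lie inside the dashed lines at 1.5-fold, and 8 of the 9 kinase and cyclin genes lie below 0 with AR7.

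Cdkn1b, which had the largest difference from None by the main scaling (0.17 in size, as for Ccnd3, which exceeded it under 4 of 6 alternatives), was set against the 2720 other named genes of similar signal over its differences with both compounds. The nearest were Lrwd1, a subunit of the origin recognition machinery, at a distance of 0.011 with differences of -0.00050 (AR7) and 0.18 (BMS614), Eny2, a subunit of a transcription coactivator complex, at 0.013 with 0.0024 and 0.17, and Id2, an inhibitor of helix-loop-helix transcription factors, at 0.018 with -0.028 and 0.17. Of the 2720 genes, 304 lay within a distance of 0.1. A pattern over 3 arrays is shared by many genes, and no more than this likeness is read from it.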

How the data were processed

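RNA of NIH3T3 cells was measured on 3 Agilent mouse arrays (1 per condition). The authors deposited the intensity of each spot from Agilent Feature Extraction 10.7.3.1, not normalized across arrays, together with a processed intensity table, used here as an alternative. The array design names the build mm9. RMA in the oligo package is the normalization given in the methods. Here its background was coded directly on the median spot intensity, followed by quantile normalization over the 3 arrays and log2 in R 4.3.3 with limma 3.58.1. Tables were made in Python 3.11.15 (numpy 2.4.6, pandas 2.3.3) and figures in matplotlib 3.10.9. Control spots and outlier spots were removed, and the spots of a probe averaged.

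A probe is well above background where most of its kept spots are. A probe was tested where this held on at least 1 array of the pair and called at a log2 difference of at least 1. On a dim array its bound was used. Names came from RefSeq accessions in a table of GRCm38.p6, which matched 27235 of 55681 probes. A gene is represented by its brightest probe. The SD of repeated spots came from 256 probes printed 10 times, in 10 bins of signal, divided by the square root of the number of spots for a probe on several. The rule of 2 SDs was added after seeing the data.

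All 10 genes are named with every probe. From the other lists, genes at a log2 difference of at least 1 and the highest and lowest of each list for each compound against None are named, with the 3 genes nearest to Cdkn1b. The members and the lists were chosen with earlier results of these data known. The calling script was tested on simulated data. The number of arrays limits the precision.

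The alternatives were the processed signal scaled to the 75th percentile, normexp with an offset of 50, RMA background with 75th percentile or spike-in scaling, the deposited table with values under 16 set to 16, folds of 1.5 and 3, other filters on dim probes and the mean over the probes of a gene.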

Additional observations from a re-analysis of the deposited data

How the results depend on the processing

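The count of probes called was 0 for AR7 against None, BMS614 against None and BMS614 against AR7 under every scaling, fold threshold (1.5 and 3) and filter on dim probes tried. Under the rule of 2 SDs of repeated spots, added after seeing the data, it was 3, 5 and 6. By gene, with the SDs kept, this rule gave 2 genes of 7 in place of 3 for AR7 with the processed signal, where Ccnd2 and Cdkn2c were lost and Cdkn2d was added, and with the deposited table, where Ccnd2 was lost. For BMS614 it gave 3 in place of 4 with the processed signal, without Cdkn2c, and 5, with Ccnd1 added, under 3 alternatives. The median difference over the measured genes with AR7, -0.014, became -0.068 with the deposited table and stayed between -0.052 and -0.014 otherwise. With BMS614, 0.017, it was -0.015 after 75th percentile scaling of the processed signal, where the median gene is Ccnd2, and -0.062 with the dim genes counted in, and between 0.0082 and 0.018 otherwise. Of the single genes, Ccnd2 with BMS614 changed sign under 1 of 6 alternatives (-0.015). The difference with BMS614 ranged from 0.14 to 0.17 for Cdkn1b, -0.19 to -0.14 for Ccnd3, -0.15 to -0.097 for Cdkn2c and 0.11 to 0.16 for Rb1. With AR7 it ranged from 0.070 to 0.12 for Ccnd2, -0.16 to -0.12 for Cdkn2c and 0.067 to 0.11 for Rb1. Spike-in scaling shifted the median of all probes by 0.20 (AR7) and 0.34 (BMS614), and its differences are given relative to that. No paired analysis was possible because the groups have a single array each. Spot error covers neither culture nor labelling, and a difference under 2-fold from 1 array each cannot be set apart from that variation here.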
